A study of Mus musculus with 4 samples.

Results

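Endothelial cells, the cells that line blood and lymph vessels, made up 532 of the 18200 kept single-cell profiles from mouse mammary glands. A kept profile had more than 500 genes and under 20% mitochondrial UMIs, a UMI being a counted RNA molecule. Cells were chosen by measured values: a kept profile was taken as endothelial if it held at least 3 of 7 endothelial transcripts (Pecam1, Cdh5, Kdr, Egfl7, Emcn, Plvap and Ptprb), no UMI of the leukocyte gene Ptprc, under 10 UMIs of the epithelial gene Epcam per 10000, and under 0.5% of its UMIs from the fibrillar collagen genes Col1a1, Col1a2 and Col3a1. Of the 532 cells, 185 held all 7 transcripts and 50 held exactly 3, whereas 42 further cells that met the other limits held 2 and were left out.

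Blood endothelium differs along the vascular tree. Arterial cells respond to Notch signals and flow, capillary cells exchange fluid, gas and lipid with the tissue, and venous cells are the main site of leukocyte entry. In growing vessels, tip cells lead the sprout and endothelial cells lay down a basement membrane of type IV collagen, laminin and nidogen, and in the mammary gland the capillaries supply both the fat pad and the milk-producing epithelium.

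The study asked how loss of LATS1 and LATS2, the kinases that restrain the YAP and TAZ transcriptional regulators, in luminal epithelium alters the rest of the gland. All 4 mice carried Lats1f/f and Lats2f/f alleles and an R26-lsl-EYFP reporter, and all received tamoxifen, 2 mg on 5 days, with tissue taken 7 days after the last dose. The 2 control (CTL) mice had no Cre and 1 copy of the reporter (R26-lsl-EYFP(heterozygous)). The 2 LATS1/2-KO mice also carried Krt8-CreERT2, a Cre that the Krt8 promoter drives in luminal epithelial cells, with a heterozygous reporter in replicate 1 and a homozygous reporter in replicate 2. Each library came from 1 mouse, and its live cells were sorted from dissociated glands after lymph nodes had been taken out of the fourth pair. Endothelial cells are thus not the cells in which the Cre is expected to act, and the comparison asks how the endothelium differed in glands whose luminal cells had lost the kinases.

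The 7 transcripts that chose the cells are given as values only. Pecam1, an adhesion molecule of endothelial junctions, stood at 1365 and 1434 CPM (UMIs per 1000000 UMIs of the tested genes after scaling) in CTL and at 1216 and 1206 CPM in LATS1/2-KO. Cdh5, the cadherin of those junctions, stood at 586 and 561 CPM in CTL and 923 and 791 CPM in LATS1/2-KO. Kdr, the main VEGF receptor, stood at 571 and 281 CPM in CTL and 228 and 245 CPM in LATS1/2-KO. The label was checked with 14 endothelial genes that the rule did not use, among them Cldn5, Tie1, Erg and Esam, and all 14 were higher in the chosen cells than in the other kept cells of the same library in each of the 4 libraries, by at least 12.1-fold.

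The targeted kinases were not called as changed in endothelial cells. Lats1 stood at 20.8 and 30.6 CPM in CTL and 22.3 and 11.9 CPM in LATS1/2-KO, with overlapping groups (log2 fold change -0.59 ± 0.56 SE, edgeR quasi-likelihood adjusted p = 0.607). Lats2 stood at 72.7 and 91.8 CPM in CTL and 44.5 and 55.0 CPM in LATS1/2-KO (log2 fold change -0.72 ± 0.31 SE, edgeR adjusted p = 0.223). A UMI of the reporter was found in 0 of 37 and 1 of 34 CTL cells and in 4 of 230 and 12 of 231 LATS1/2-KO cells. These levels rest on few UMIs, 4 to 24 for Lats1 and 14 to 60 for Lats2 per library, so they check the labels only weakly.

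The CTL glands yielded 37 and 34 endothelial cells, and the LATS1/2-KO glands 230 and 231. That was 0.753% (95% exact binomial interval 0.531 to 1.04%) and 0.967% (0.671 to 1.35%) of kept cells in CTL. It was 5.11% (4.49 to 5.80%) and 4.38% (3.85 to 4.97%) in LATS1/2-KO. The groups did not overlap, with means of 0.860% ± 0.152 and 4.75% ± 0.517 (SD, n = 2), a difference of 3.89 percentage points. An exact two-sided permutation test over the libraries gave p = 0.33, the smallest value that 2 mice against 2 allow. A share depends on how many other cells were recovered. Of cells with Epcam under 10 per 10000 UMIs, the endothelial cells were 6.41% and 9.63% in CTL and 16.8% and 9.41% in LATS1/2-KO, so with the epithelium set aside the groups overlapped (exact permutation p = 0.67). These intervals cover counting error only.

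**Figure D1:**
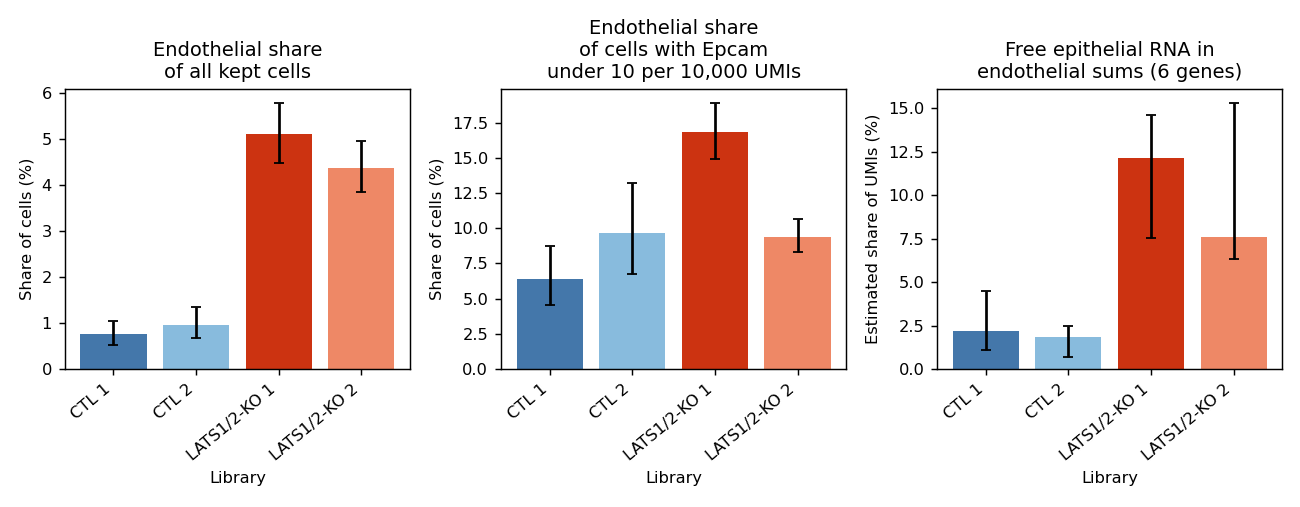
Bars give, for each library, the endothelial share of all kept cells (%), the endothelial share of cells with Epcam under 10 per 10000 UMIs (%), both with 95% exact binomial intervals, and the estimated share of endothelial UMIs that is free epithelial RNA (%), whose bars run from the lowest to the highest of 6 single-gene estimates. Both LATS1/2-KO libraries lie above both CTL libraries in the first and the third panel, and the groups overlap in the second.

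Epithelial transcripts were more abundant in LATS1/2-KO than in CTL endothelial profiles. Read as free RNA, they were estimated from 6 epithelial genes (Wfdc18, Csn3, Plet1, Trf, Krt8 and Krt18) at 2.19% and 1.82% of endothelial UMIs in CTL and at 12.2% and 7.59% in LATS1/2-KO. The same estimate in collagen-rich stromal cells was 7.56% and 2.41% in CTL and 7.25% and 4.55% in LATS1/2-KO, and other sources of these transcripts were not separated. Of these 6 genes, 3 passed the threshold upwards, and of 11 tested genes of the other epithelial list 5 did (Igfbp2, Lcn2, Krt14, Krt7 and Cldn7). After subtraction none of the 8 was called, which for Wfdc18, Krt8 and Krt18 was built in, since they set the estimate. Lcn2, Krt7 and Cldn7 then no longer passed the filter on low counts, and Igfbp2 and Krt14 missed the threshold (edgeR adjusted p = 0.0891 and 0.0832) with CTL still at 0 UMIs. Igfbp2 had 0 UMIs in both CTL libraries and 889 and 170 UMIs in LATS1/2-KO, and 1 cell of LATS1/2-KO replicate 1 with 33708 UMIs held 584 of the 889. An Igfbp2 UMI was nonetheless seen in 79 of 230 and 82 of 231 LATS1/2-KO cells, and with the highest cell left out Igfbp2 and Krt14 were still called (edgeR adjusted p = 0.00997 and 0.0120). The cell with 33708 UMIs also held 373 Krt14 and 289 Krt8 UMIs beside 7 of the 7 endothelial transcripts. A call in the same direction after subtraction was a condition for choosing the 24 named genes below, so it is no check on them. The gene lists are given with their counts before subtraction.

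The median depth per cell was similar. The median endothelial cell held 4344 and 4432.5 UMIs in CTL and 4341 and 4129 UMIs in LATS1/2-KO, and the summed counts were 197556 and 195601 UMIs in CTL and 1129626 and 1150154 UMIs in LATS1/2-KO. Cells under 2000 UMIs were 5 of 37 and 4 of 34 in CTL and 48 of 230 and 40 of 231 in LATS1/2-KO. No endothelial barcode was shared between libraries. Markers of other cells were low: the summed level of 16 immune genes was 45.9 to 88.2 CPM in CTL and 118 to 215 CPM in LATS1/2-KO, with Cd3e, Cd3g and Ms4a1 at 0 throughout, and 12 pericyte and smooth muscle genes summed to 133 to 394 CPM in CTL and 591 to 669 CPM in LATS1/2-KO. The summed level of 12 fibroblast genes was 265 to 384 CPM in CTL and 306 to 615 CPM in LATS1/2-KO, and that of 8 adipocyte genes was 0 CPM in both CTL libraries, 8.35 CPM in LATS1/2-KO replicate 1 and 456 CPM in replicate 2. In these 4 lists 3 genes passed the threshold, all upwards, namely Mfap5 (fibroblast), Mustn1 (pericyte and smooth muscle) and C1qb (immune). The part of these cells in the results was not tested.

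LATS1/2-KO endothelium differed from CTL at 386 of 7221 tested genes (5.35%, edgeR quasi-likelihood test, Benjamini-Hochberg adjusted p under 0.05). Of these, 172 genes rose (2.38%) and 214 fell (2.96%). The counts given for each gene list are to be read beside these shares. At all 386 the 2 CTL libraries did not overlap the 2 LATS1/2-KO libraries, which was also true of 54.4% of all tested genes. The median log2 fold change of all tested genes was 0.03. Of the genes that rose 151, and of those that fell 185, were called in the same direction after free RNA had been subtracted. The call rests on which genes enter the test: with every gene that had a UMI, 0 of 15151 passed, although 1725 had an unadjusted p under 0.05.

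Among the 12 largest rises that met the rule for named genes, 5 genes had no UMI in either CTL library. That rule asked for a call after free RNA subtraction, which Igfbp2, with a larger fitted value, did not meet. Car4, a membrane-bound carbonic anhydrase of capillaries (chr11:84957786-84966044, GRCm38), had 0 and 0 UMIs in CTL and 102 and 116 UMIs in LATS1/2-KO, at least 13.0-fold higher against a floor of 3 UMIs over the group (edgeR adjusted p = 0.00408). A Car4 UMI was seen in 57 of 230 and 59 of 231 LATS1/2-KO cells but in 0 of 37 and 0 of 34 CTL cells. Fjx1, a secreted regulator of planar polarity and a known YAP target (chr2:102449366-102452499), had 0 and 0 UMIs in CTL and 220 and 82 UMIs in LATS1/2-KO, at least 18.05-fold higher (edgeR adjusted p = 0.0292). Both LATS1/2-KO libraries thus held each gene in quantity, with Fjx1 less even between them. Car2, a cytosolic carbonic anhydrase, had 122 and 50 UMIs in LATS1/2-KO (at least 10.3-fold higher, edgeR adjusted p = 0.0439). AA467197 had 82 and 77 UMIs in LATS1/2-KO (at least 9.50-fold higher, edgeR adjusted p = 0.00652), and Sectm1a had 65 and 45 (at least 6.57-fold higher, edgeR adjusted p = 0.0211). Car2 lost its call with RLE size factors (edgeR adjusted p = 0.0544), and without LATS1/2-KO replicate 1 Car2 and Sectm1a did not pass the filter on low counts.

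Angpt2, the angiopoietin that endothelial cells release when vessels are remodelled (chr8:18690263-18741562), had 1 UMI in each CTL library and 111 and 99 UMIs in LATS1/2-KO. The ratio of summed levels was 18.8 (95% counting interval 5.15 to 156, edgeR adjusted p = 0.00408), and 53 of 230 and 60 of 231 LATS1/2-KO cells held a UMI. Thbs1, a matrix protein that restrains vessel growth (chr2:118111876-118127133), stood at 26.0 and 5.10 CPM in CTL and 256 and 285 CPM in LATS1/2-KO (log2 fold change 4.11 ± 0.43 SE, edgeR adjusted p = 0.00245). It was 3.36 without CTL replicate 2 and 5.67 without CTL replicate 1. Trp53i11 stood at 10.4 and 10.2 CPM in CTL and 276 and 204 CPM in LATS1/2-KO (log2 fold change 4.52 ± 0.43 SE, edgeR adjusted p = 0.00203). Inhbb, which encodes the beta-B chain of inhibins and activins, had 2 and 1 UMIs in CTL and 160 and 84 UMIs in LATS1/2-KO (ratio 14.6, counting interval 4.93 to 71.2, edgeR adjusted p = 0.0180). The remaining 3 genes had 1 CTL UMI each, in replicate 1 for Ada and C1qtnf1 and in replicate 2 for Ttll7: Ada, which breaks down adenosine, had 82 and 97 UMIs in LATS1/2-KO, the secreted C1q and TNF-related protein gene C1qtnf1 had 90 and 82, and the tubulin-modifying enzyme gene Ttll7 had 61 and 89. All 12 genes were clear of the CTL range in both LATS1/2-KO libraries, which was a condition of their choice. Ttll7 lost its call without LATS1/2-KO replicate 2 (edgeR adjusted p = 0.0822) and under DESeq2 (adjusted p = 0.0607).

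**Figure D2:**
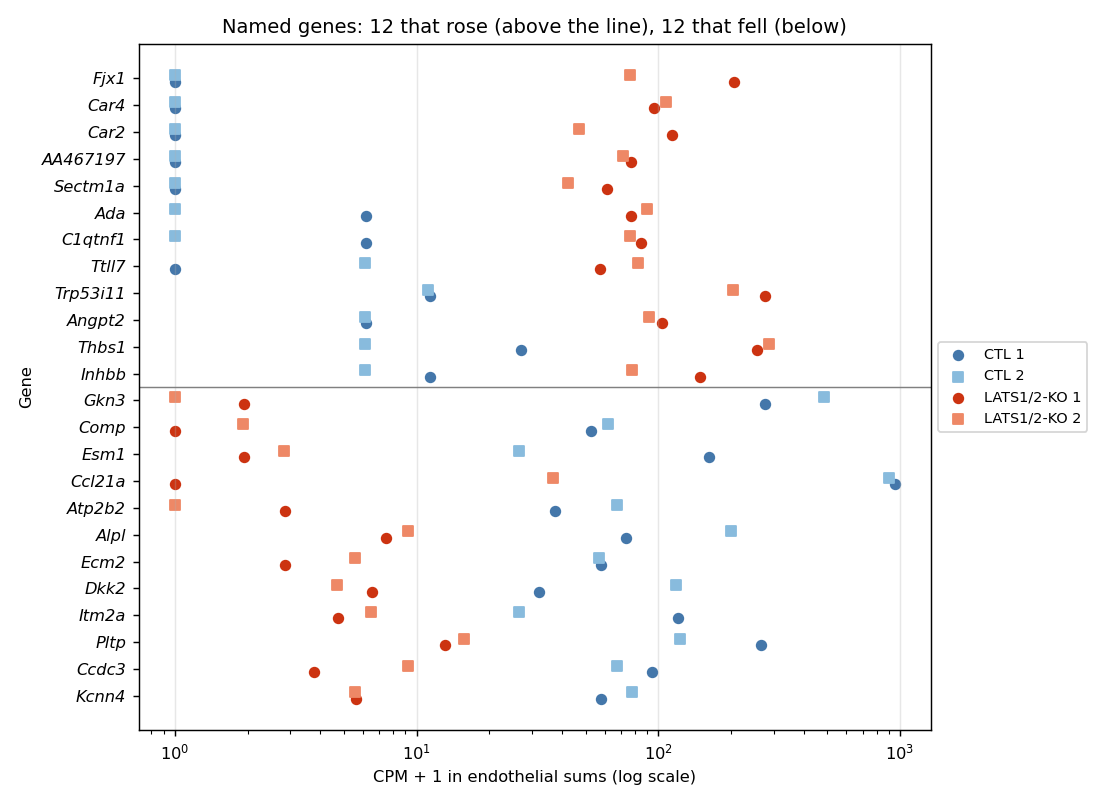
Each row is 1 of the 24 named genes, and each point is the level of 1 library in CPM plus 1 on a log axis, with CTL in blue and LATS1/2-KO in red. The 12 genes above the line rose and the 12 below it fell in LATS1/2-KO. The groups do not overlap in any row, by the rule that chose the genes.

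The 12 largest falls that met the same rule included arterial genes. Gkn3, which marks arterial endothelium in several organs (chr6:87383256-87388935), had 53 and 95 UMIs in CTL and 1 and 0 UMIs in LATS1/2-KO. Its ratio of CTL to LATS1/2-KO was 826 with a counting interval of 146 to 32828 (edgeR adjusted p = 0.000647). The CTL UMIs came from 7 of 37 and 12 of 34 cells, the LATS1/2-KO UMI from 1 of 230 and 0 of 231. Alpl, the tissue-nonspecific alkaline phosphatase (chr4:137741733-137796384), stood at 72.7 and 199 CPM in CTL and 6.49 and 8.25 CPM in LATS1/2-KO (log2 fold change -4.17 ± 0.53 SE, edgeR adjusted p = 0.00436). Without CTL replicate 2 it was -3.29. Esm1, a secreted proteoglycan of VEGF-stimulated tip cells (chr13:113209659-113218098), had 31 and 5 UMIs in CTL against 1 and 2 in LATS1/2-KO (ratio 66.9, counting interval 21.2 to 340, edgeR adjusted p = 0.0107), and without CTL replicate 1 it did not pass the filter. Pltp, a phospholipid transfer protein, stood at 265 and 122 CPM in CTL and 12.1 and 14.7 CPM in LATS1/2-KO (log2 fold change -3.83 ± 0.41 SE, edgeR adjusted p = 0.00245; -3.20 without CTL replicate 1).

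Low counts limit the other falls. Comp, a cartilage matrix protein, had 10 and 12 UMIs in CTL and 0 and 1 in LATS1/2-KO, and its call was lost with either LATS1/2-KO library left out (edgeR adjusted p = 0.237 without replicate 1 and 0.110 without replicate 2). The calcium pump gene Atp2b2 had 7 and 13 UMIs in CTL and 2 and 0 in LATS1/2-KO (edgeR adjusted p = 0.291 without LATS1/2-KO replicate 1 and 0.302 without replicate 2). Ecm2 had 11 UMIs in each CTL library and 2 and 5 in LATS1/2-KO (0.340 and 0.195 in the same fits), and the potassium channel gene Kcnn4 had 11 and 15 in CTL and 5 in each LATS1/2-KO library (0.113 and 0.0794). The WNT antagonist Dkk2 stood at 31.1 and 117 CPM in CTL and 5.57 and 3.67 CPM in LATS1/2-KO, with adjusted p = 0.0126 in edgeR and 0.0972 without CTL replicate 2 (log2 fold change -3.96, then -2.73, and -4.64 without CTL replicate 1). Itm2a stood at 119 and 25.5 CPM in CTL and 3.71 and 5.50 CPM in LATS1/2-KO, with adjusted p = 0.0186 in edgeR and 0.133 without CTL replicate 1 (log2 fold change -3.91, then -2.45, and -4.66 without CTL replicate 2). Ccdc3, which encodes a protein secreted by endothelium and fat, stood at 93.4 and 66.3 CPM in CTL and 2.78 and 8.25 CPM in LATS1/2-KO (log2 fold change -3.80 ± 0.52 SE, edgeR adjusted p = 0.00559; -3.19 without LATS1/2-KO replicate 1 and -4.71 without replicate 2).

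The fall of Ccl21a came down to a handful of cells. This chemokine of lymphatic and lymph node vessels, whose symbol belongs to a family of near-identical copies so that its counts are uncertain, had 183 and 176 UMIs in CTL and 0 and 39 in LATS1/2-KO (log2 fold change -5.67 ± 0.78 SE, edgeR adjusted p = 0.00587; DESeq2 adjusted p = 0.313; -4.64 without LATS1/2-KO replicate 1). In CTL replicate 1 all 183 UMIs lay in 2 cells, with 91 and 92. These 2 cells also held 3434 and 1624 UMIs of Glycam1, a ligand of lymphocyte homing on lymph node venules, and no UMI of the lymphatic regulator Prox1. In CTL replicate 2 all 176 UMIs lay in 1 cell that held 53 Prox1 and 14 Mmrn1 UMIs and no Glycam1. In LATS1/2-KO replicate 2 all 39 UMIs lay in 1 cell with 32 Lyve1 and 15 Mmrn1 UMIs. The 2 CTL values are thus similar in size and come from cells with different markers.

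Arterial genes were lower in LATS1/2-KO endothelium. Of 12 arterial genes, all tested, 6 fell and none rose, with a median log2 fold change of -1.82 beside 0.03 for all genes. Cxcl12, a chemokine that arteries make, stood at 810 and 536 CPM in CTL and 85.3 and 134 CPM in LATS1/2-KO (log2 fold change -2.61 ± 0.30 SE, edgeR adjusted p = 0.00319). Stmn2, a regulator of microtubules, stood at 509 and 464 CPM in CTL and 68.7 and 63.3 CPM in LATS1/2-KO (log2 fold change -2.88 ± 0.22 SE, edgeR adjusted p = 0.00146). Sema3g, a secreted guidance factor of arteries, stood at 197 and 403 CPM in CTL and 65.9 and 80.7 CPM in LATS1/2-KO (log2 fold change -2.03 ± 0.33 SE, edgeR adjusted p = 0.0108; -1.44 without CTL replicate 2). Every one of these values was lower in both LATS1/2-KO libraries than in both CTL libraries. Hey1, a Notch target, fell as well but lost its call without LATS1/2-KO replicate 1 (edgeR adjusted p = 0.0808), and the kinase gene Bmx without CTL replicate 2 (0.113) and after free RNA subtraction (0.0580). The gap junction gene Gja4 (161 and 179 CPM in CTL, 104.8 and 71.5 CPM in LATS1/2-KO) and the transcription factor gene Sox17 (275 and 311 CPM in CTL, 159 and 164 CPM in LATS1/2-KO) did not pass the threshold.

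Fewer LATS1/2-KO cells carried arterial markers. Cells under 2000 UMIs, counted above, were left out, and the others were thinned to 2000 UMIs each. At least 2 of the 12 markers were then found in 18 of 32 and 24 of 30 CTL cells, or 56.2% and 80.0%. In LATS1/2-KO they were found in 58 of 182 and 63 of 191 cells, or 31.9% and 33.0%. At least 2 of 18 capillary and lipid uptake markers were found in 87.5% and 76.7% of CTL cells and in 96.7% and 98.4% of LATS1/2-KO cells. For 12 venous markers the shares were 71.9% and 56.7% in CTL and 92.3% and 86.4% in LATS1/2-KO. For 20 tip cell and angiogenic markers they were 65.6% and 73.3% in CTL and 92.9% and 93.7% in LATS1/2-KO. For these 4 lists the groups did not overlap, and each exact permutation p was 0.33, the smallest possible. The capillary difference was 15.5 percentage points, and 10.1 without CTL replicate 2. The lymphatic shares, 0% and 3.33% in CTL and 1.10% and 0.524% in LATS1/2-KO, overlapped. Most cells passed for more than 1 list, so the shares describe transcripts and not separate cell types.

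**Figure D3:**
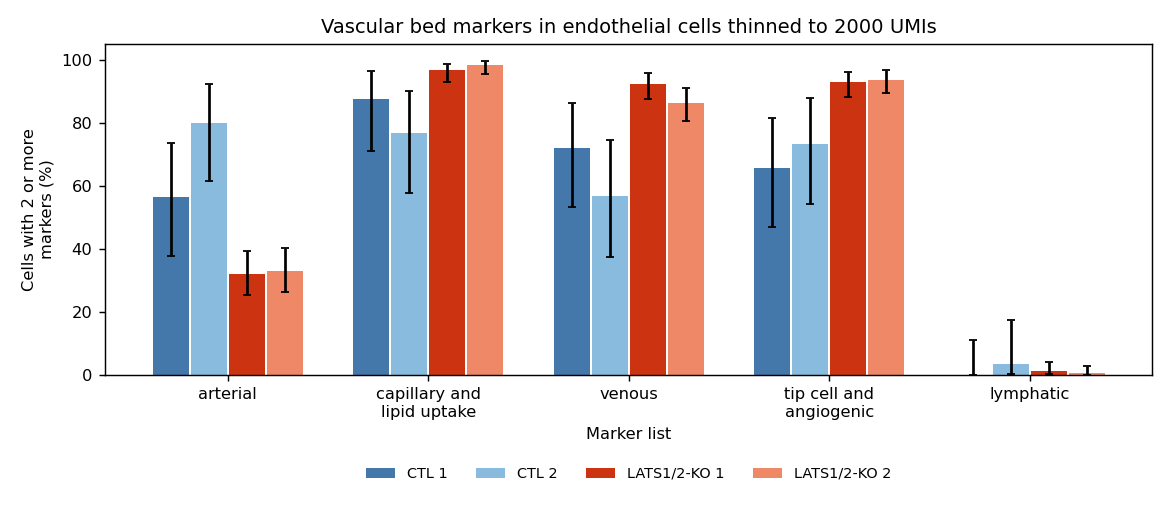
Bars give the share of endothelial cells (%) with at least 2 markers of each vascular bed list in each library, with 95% exact binomial intervals. Cells were thinned to 2000 UMIs each, and cells under 2000 UMIs were left out. The arterial bars are lower and the capillary, venous and tip cell bars higher in both LATS1/2-KO libraries than in both CTL libraries, and the lymphatic bars overlap.

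Genes of capillary lipid uptake did not move as a block. Of 17 tested, 3 rose and 1 fell, with a median log2 fold change of 0.88. Under DESeq2 7 of 18 rose and 1 fell, and after free RNA subtraction 5 of 17 rose and 1 fell. The median was positive in every fit, from 0.38 in cells with fewer than 4 arterial markers to 1.85 in those with at least 4. Gpihbp1, which carries lipoprotein lipase to the capillary lumen, stood at 104 and 40.8 CPM in CTL and 544 and 661 CPM in LATS1/2-KO (log2 fold change 3.06 ± 0.35 SE, edgeR adjusted p = 0.00319). Without CTL replicate 1 it was 3.86. Cd36, a fatty acid transporter, stood at 483 and 627 CPM in CTL and 1150 and 1149 CPM in LATS1/2-KO (log2 fold change 1.05 ± 0.21 SE, edgeR adjusted p = 0.0280). Car4, described above, is the remaining gene of the list that rose. Fabp5, a cytoplasmic fatty acid binding protein, stood at 441 and 689 CPM in CTL and 220 and 181 CPM in LATS1/2-KO (log2 fold change -1.50 ± 0.26 SE, edgeR adjusted p = 0.0136). Its relative Fabp4 stood at 7790 and 7907 CPM in CTL and 16545 and 10833 CPM in LATS1/2-KO and did not pass the threshold (edgeR adjusted p = 0.125). Lpl stood at 10.4 and 0 CPM in CTL and 62.2 and 236 CPM in LATS1/2-KO (edgeR adjusted p = 0.0594; 0.0414 after free RNA subtraction), and 59 of the 257 Lpl UMIs of LATS1/2-KO replicate 2, the library with adipocyte transcripts, lay in 1 cell.

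Venous genes were mostly not called. Of 12, only Aplnr, the apelin receptor, rose, from 62.3 and 45.9 CPM in CTL to 223 and 138 CPM in LATS1/2-KO (log2 fold change 1.74 ± 0.37 SE, edgeR adjusted p = 0.0330). The selectin gene Selp stood at 867 and 821 CPM in CTL and 1111 and 853 CPM in LATS1/2-KO (edgeR adjusted p = 0.613), and Ackr1, a chemokine scavenger of venules, stood at 524 and 250 CPM in CTL and 888 and 680.5 CPM in LATS1/2-KO (adjusted p = 0.108). Of 3 tested lymphatic genes 2 fell, Ccl21a and Prox1, and Prox1 lost its call without CTL replicate 2 (log2 fold change -0.55 in place of -3.36, edgeR adjusted p = 0.825; -4.27 without CTL replicate 1), whose single cell above held 53 of its 54 UMIs.

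Several basement membrane genes rose. Of 20 tested genes 6 rose and 1 fell, with a median log2 fold change of 0.76. The type IV collagen chains Col4a1 and Col4a2 rose together. Col4a1 (chr8:11198423-11312826, minus strand) stood at 311 and 224 CPM in CTL and 1204 and 984 CPM in LATS1/2-KO (log2 fold change 2.03 ± 0.24 SE, edgeR adjusted p = 0.00387). Col4a2 (chr8:11312805-11449287, plus strand) stood at 145 and 138 CPM in CTL and 822 and 774 CPM in LATS1/2-KO (log2 fold change 2.49 ± 0.22 SE, edgeR adjusted p = 0.00203).

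The annotated starts of these 2 genes lie next to each other on opposite strands, with their 5′ ends overlapping.

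Nid1, Sparc, Col18a1 and Postn were the other genes of the list that rose. Nid1, the nidogen that ties laminin to type IV collagen, stood at 77.9 and 91.8 CPM in CTL and 340 and 291 CPM in LATS1/2-KO (log2 fold change 1.89 ± 0.25 SE, edgeR adjusted p = 0.00530). Sparc, a collagen-binding glycoprotein, stood at 851 and 459 CPM in CTL and 1695 and 1602 CPM in LATS1/2-KO (log2 fold change 1.33 ± 0.28 SE, edgeR adjusted p = 0.0344). Col18a1, the source of endostatin, stood at 88.2 and 96.9 CPM in CTL and 279 and 306 CPM in LATS1/2-KO (log2 fold change 1.66 ± 0.24 SE, edgeR adjusted p = 0.00700). Postn had a log2 fold change of 2.97 before and 2.50 after free RNA subtraction (edgeR adjusted p = 0.0285 and 0.0506), and 1.96 without CTL replicate 2, the library with no UMI of it. None of 5 tested laminin genes passed (Lama4, Lama5, Lamb1, Lamb2 and Lamc1, edgeR adjusted p = 0.0576 to 0.420). Lamb2 stood at 140 and 158 CPM in CTL and 71.4 and 81.6 CPM in LATS1/2-KO. Fn1, fibronectin, fell from 145 and 444 CPM in CTL to 71.4 and 58.7 CPM in LATS1/2-KO (log2 fold change -2.18 ± 0.43 SE, edgeR adjusted p = 0.0245), and the value was -1.17 without CTL replicate 2 and -2.78 without CTL replicate 1. Of 10 integrin genes, 1 fell (Itgb4) and none rose.

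**Figure D4:**
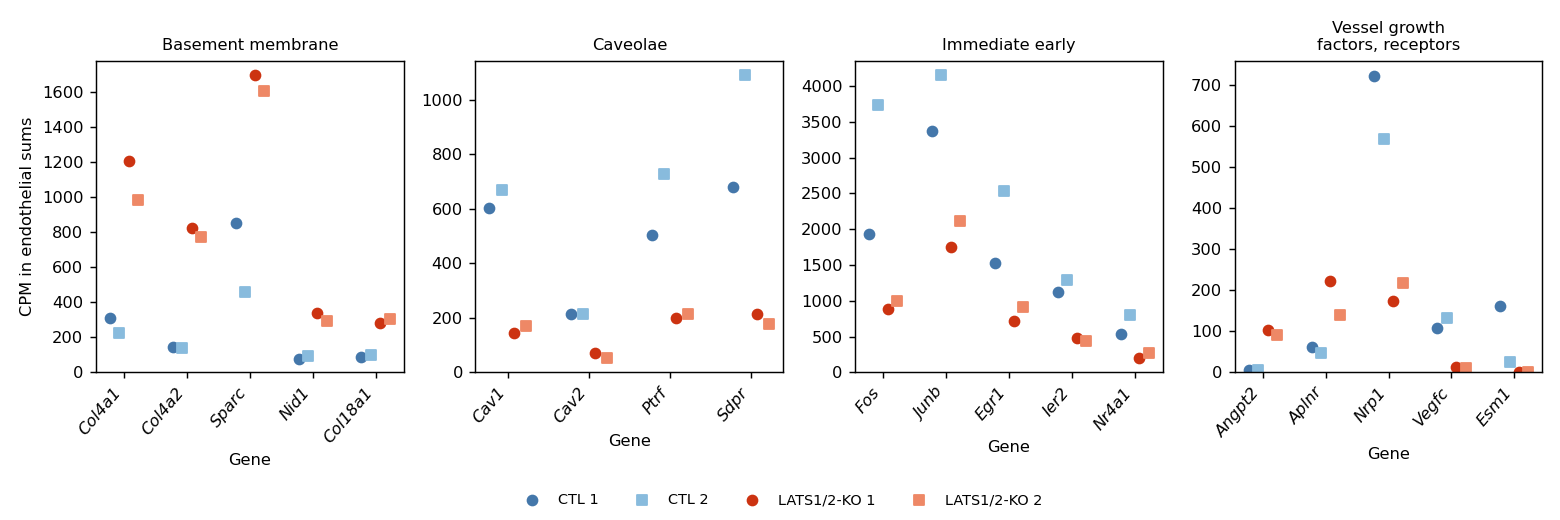
Points give the level of each library in CPM for 19 genes in 4 groups, with CTL in blue and LATS1/2-KO in red and each panel on its own axis from 0. Type IV collagen and its partners, Angpt2 and Aplnr are higher, and the caveola genes, the immediate early genes, Nrp1, Vegfc and Esm1 lower, in both LATS1/2-KO libraries than in both CTL libraries.

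The tip cell and angiogenic list split. Of 16 tested genes 6 rose (Sparc, Col4a1, Col4a2, Trp53i11, Mcam and Angpt2) and 2 fell (Esm1 and Unc5b), and the median log2 fold change was -0.51 although more members rose than fell. That median turned to 1.19 with sums thinned to equal depth, where 11 of the genes were tested, and to 0.49 and 1.42 in cells with at least 4 and with fewer than 4 arterial markers. Mcam lost its call without CTL replicate 2 (edgeR adjusted p = 0.0626), and Unc5b with any library but CTL replicate 1 left out (adjusted p = 0.0637 to 0.471). Of the 6 rises, 3 are matrix genes already given. Esm1, a defining tip cell gene, moved the opposite way, but its CTL UMIs lay in only 4 of 37 and 1 of 34 cells. With the highest cell of each gene left out, Esm1 did not pass the filter.

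Among ligands and receptors of vessel growth, 2 of 16 tested genes rose (Angpt2 and Aplnr) and 4 fell. Nrp1, a co-receptor of VEGF and semaphorins, stood at 721 and 566 CPM in CTL and 173 and 217 CPM in LATS1/2-KO (log2 fold change -1.72 ± 0.23 SE, edgeR adjusted p = 0.00496). Vegfc, a ligand best known for lymphatic growth, stood at 109 and 133 CPM in CTL and 12.1 and 11.01 CPM in LATS1/2-KO (log2 fold change -3.37 ± 0.35 SE, edgeR adjusted p = 0.00245). Sema3g and Esm1 are the other two that fell. The angiopoietin receptor Tek (171 and 204 CPM in CTL, 89.99 and 116 CPM in LATS1/2-KO, edgeR adjusted p = 0.0874) and the VEGF receptor Flt1 (1007 and 786 CPM in CTL, 675 and 687 CPM in LATS1/2-KO, adjusted p = 0.313) did not pass. Of 12 Notch genes, 2 fell (Hey1 and the ligand Jag1) and none rose, with a median of -0.62, and Jag1 lost its call without CTL replicate 2 (edgeR adjusted p = 0.177).

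In the TGF-beta and BMP list, 4 of 21 tested genes fell, with a median of -0.10. Acvrl1, the BMP receptor of endothelium also called ALK1, stood at 223 and 219 CPM in CTL and 55.7 and 66.0 CPM in LATS1/2-KO (log2 fold change -1.86 ± 0.23 SE, edgeR adjusted p = 0.00415). Id1, a target of BMP signals, stood at 618 and 658 CPM in CTL and 208 and 349 CPM in LATS1/2-KO and lost its call without LATS1/2-KO replicate 1 (edgeR adjusted p = 0.136). Ltbp4 and Bambi fell too, Bambi not under DESeq2 (adjusted p = 0.0779), and the symbol Ltbp4 is listed more than once in the files, so that its value is uncertain. The co-receptor Tgfbr3 rose, but not without CTL replicate 2 (edgeR adjusted p = 0.0683).

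Caveolae are small membrane pits in which endothelium is rich. The junction and permeability list had 18 tested genes, of which 5 fell and 1 rose, with a median of -0.81, and 4 of the 5 that fell encode caveola proteins, a grouping made after the values were seen. Cav1, the main caveolin, stood at 602 and 668 CPM in CTL and 143 and 171 CPM in LATS1/2-KO (log2 fold change -2.02 ± 0.21 SE, edgeR adjusted p = 0.00245). Sdpr, now Cavin2, stood at 680 and 1092 CPM in CTL and 215 and 177 CPM in LATS1/2-KO (log2 fold change -2.17 ± 0.26 SE, edgeR adjusted p = 0.00408). Ptrf, now Cavin1, stood at 503 and 730 CPM in CTL and 200.4 and 213 CPM in LATS1/2-KO (log2 fold change -1.58 ± 0.23 SE, edgeR adjusted p = 0.00724), and Cav2 at 213 and 214 CPM in CTL and 71.4 and 52.3 CPM in LATS1/2-KO (log2 fold change -1.78 ± 0.25 SE, edgeR adjusted p = 0.00663). Cgnl1, a scaffold of tight junctions, fell, and the claudin gene Cldn5 (856 and 1270 CPM in CTL, 671 and 393 CPM in LATS1/2-KO, edgeR adjusted p = 0.0952) did not pass. Pkp4 rose and lost its call without CTL replicate 2 (edgeR adjusted p = 0.0557) or LATS1/2-KO replicate 2 (0.0608).

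Most genes that respond to flow were not called. Of 10, 2 fell, none rose and 8 did not pass, with a median of -0.94. Of all tested genes 2.96% fell. Slc9a3r2, a scaffold of the endothelial surface, stood at 519 and 546 CPM in CTL and 114 and 141 CPM in LATS1/2-KO (log2 fold change -2.06 ± 0.21 SE, edgeR adjusted p = 0.00245). Klf2, a transcription factor that laminar flow induces, stood at 893 and 2036 CPM in CTL and 536 and 463 CPM in LATS1/2-KO (log2 fold change -1.55 ± 0.35 SE, edgeR adjusted p = 0.0401; -0.85 without CTL replicate 2). With the replicate number as a block its adjusted p was 0.0610. Klf4 stood at 1308 and 2770 CPM in CTL and 511 and 903 CPM in LATS1/2-KO (edgeR adjusted p = 0.0548), and Nos3, the endothelial nitric oxide synthase, at 46.7 and 122 CPM in CTL and 112 and 99.97 CPM in LATS1/2-KO (adjusted p = 0.668).

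Immediate early and heat shock genes form a list that tissue dissociation also induces. Of its 22 tested genes 6 fell, 2 rose and 14 did not pass. The median was -0.49, and 0.05 in cells with fewer than 4 arterial markers. Fos stood at 1926 and 3734 CPM in CTL and 887 and 994 CPM in LATS1/2-KO (log2 fold change -1.59 ± 0.31 SE, edgeR adjusted p = 0.0228). Ier2 stood at 1126 and 1286 CPM in CTL and 477 and 444 CPM in LATS1/2-KO (log2 fold change -1.39 ± 0.20 SE, edgeR adjusted p = 0.00667). Nr4a1 stood at 540 and 796 CPM in CTL and 199 and 267 CPM in LATS1/2-KO (log2 fold change -1.52 ± 0.26 SE, edgeR adjusted p = 0.0127). Junb, Egr1 and Zfp36 fell too but lost their calls without LATS1/2-KO replicate 1 (edgeR adjusted p = 0.275, 0.0528 and 0.160), and Junb and Zfp36 also without LATS1/2-KO replicate 2 (0.0604 and 0.0590). The 2 that rose were heat shock genes, while Dnaja1, Dnajb1, Hspa8, Hsp90aa1 and Hsph1 did not pass (edgeR adjusted p = 0.434 to 0.989). Hspa1b stood at 182 and 240 CPM in CTL and 847 and 778 CPM in LATS1/2-KO (log2 fold change 1.95 ± 0.23 SE, edgeR adjusted p = 0.00351). Its neighbour Hspa1a stood at 467 and 699 CPM in CTL and 1451 and 1349 CPM in LATS1/2-KO (log2 fold change 1.26 ± 0.24 SE, edgeR adjusted p = 0.0211), and since the coding sequences of these 2 genes are nearly the same, their counts may be shared. The part of dissociation in these values was not tested.

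YAP/TAZ targets moved both ways. Of 16 tested, 3 rose (Ctgf, Fjx1 and Ankrd1) and 3 fell (Gadd45b, Crim1 and Ptpn14), with a median of -0.25. The sign of that median depended on the fit. It was -0.49 after free RNA subtraction, but 0.30 under DESeq2, where 22 genes were tested, and 0.20 without CTL replicate 2. Ctgf stood at 46.7 and 45.9 CPM in CTL and 193 and 149 CPM in LATS1/2-KO (log2 fold change 1.88 ± 0.31 SE, edgeR adjusted p = 0.0113), while free RNA was estimated to give 57.8 and 51.1 CPM in LATS1/2-KO. After subtraction the Ctgf value was 1.45 (edgeR adjusted p = 0.0464), and at the highest free RNA share it was 1.01 and the call was lost (adjusted p = 0.352). Ankrd1 had 0 UMIs in CTL and did not pass the filter after free RNA subtraction. Cyr61, the target most often read beside Ctgf, stood at 234 and 301 CPM in CTL and 186 and 226 CPM in LATS1/2-KO (edgeR adjusted p = 0.398). Gadd45b stood at 690 and 765 CPM in CTL and 232 and 259.5 CPM in LATS1/2-KO (log2 fold change -1.57 ± 0.20 SE, edgeR adjusted p = 0.00436). Crim1 lost its call after free RNA subtraction (0.0662), without LATS1/2-KO replicate 1 (0.239) and without LATS1/2-KO replicate 2 (0.0504). The regulators themselves were not called: Yap1 stood at 46.7 and 45.9 CPM in CTL and 66.8 and 79.8 CPM in LATS1/2-KO (edgeR adjusted p = 0.281) and Wwtr1, which encodes TAZ, at 213 and 179 CPM in CTL and 277 and 248 CPM in LATS1/2-KO (adjusted p = 0.315). Tead1 stood at 36.3 and 61.2 CPM in CTL and 51.0 and 47.7 CPM in LATS1/2-KO (edgeR adjusted p = 0.991).

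Genes of leukocyte contact were mostly not called. In the leukocyte adhesion list 2 of 16 tested genes fell, Icam2 and Podxl, and none rose. The log2 fold change of Podxl was -1.94, and -2.57 without LATS1/2-KO replicate 2. Icam2, which also counts among the endothelial genes that the rule did not use, stood at 436 and 321 CPM in CTL and 78.9 and 78.0 CPM in LATS1/2-KO (log2 fold change -2.27 ± 0.24 SE, edgeR adjusted p = 0.00245). Sox18, an endothelial transcription factor of the same list, stood at 228 and 230 CPM in CTL and 80.7 and 75.2 CPM in LATS1/2-KO (log2 fold change -1.55 ± 0.22 SE, edgeR adjusted p = 0.00667), and the other 12 genes of that list did not pass. Of 17 chemokine and cytokine genes 2 rose (Cxcl9 and Cxcl2) and 2 fell (Ccl21a and Cxcl12). Cxcl2 had a log2 fold change of 3.34, and of 4.32 without CTL replicate 1 and 2.74 without CTL replicate 2. Cxcl9, an interferon-induced T cell attractant, stood at 88.2 and 5.10 CPM in CTL and 730 and 416 CPM in LATS1/2-KO (log2 fold change 3.62 ± 0.62 SE, edgeR adjusted p = 0.0136; DESeq2 adjusted p = 0.210; 2.69 without CTL replicate 2 and 6.75 without CTL replicate 1). Of 32 interferon genes 3 rose (Cxcl9, Gbp2 and Irf7) and 1 fell (Irf1, not without LATS1/2-KO replicate 2, edgeR adjusted p = 0.0710), with a median of 0.44. Of 15 MHC genes 3 fell and none rose: Cd74, Psmb9 and H2-Eb1. Cd74, the chaperone of MHC class II, stood at 379 and 158 CPM in CTL and 87.2 and 48.6 CPM in LATS1/2-KO (log2 fold change -1.98 ± 0.42 SE, edgeR adjusted p = 0.0326; -1.24 without CTL replicate 1). Psmb9 lost its call without LATS1/2-KO replicate 1 (edgeR adjusted p = 0.0994), and H2-Eb1 with any library but CTL replicate 1 left out (0.107 to 0.418).

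No tested cell cycle gene rose. Of 12 tested cell cycle genes, 2 fell: Ccnd2 from 280 and 459 CPM in CTL to 71.4 and 87.1 CPM in LATS1/2-KO (log2 fold change -2.22 ± 0.28 SE, edgeR adjusted p = 0.00425) and Ccnd1 from 259.5 and 127.5 CPM to 48.2 and 40.4 CPM (log2 fold change -2.12 ± 0.34 SE, edgeR adjusted p = 0.0106). A UMI of the proliferation marker Mki67 was seen in 0 of 37 and 1 of 34 CTL cells and 12 of 230 and 7 of 231 LATS1/2-KO cells, and with so few CTL cells a difference of this size was not detectable. Of 17 hypoxia and glycolysis genes 1 rose, the glycolytic enzyme gene Pkm, from 192 and 163 CPM in CTL to 547 and 477 CPM in LATS1/2-KO (log2 fold change 1.53 ± 0.22 SE, edgeR adjusted p = 0.00724). None of 18 ribosomal protein genes passed the threshold, with a median of 0.44. In the mesenchymal list 2 of 12 tested genes fell (Fn1 and S100a4), with a median of 0.03. The S100a4 value was -2.22, and -1.60 without CTL replicate 2.

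Several strongly expressed genes outside the lists also changed, and were chosen after their values had been seen. The metallothioneins Mt1 and Mt2, small proteins that bind zinc and copper, rose in every fit but the one without a filter. Mt1 stood at 280 and 939 CPM in CTL and 3222 and 3402 CPM in LATS1/2-KO (log2 fold change 2.44 ± 0.45 SE, edgeR adjusted p = 0.0192; 1.80 without CTL replicate 1 and 3.55 without CTL replicate 2). Mt2 stood at 104 and 235 CPM in CTL and 2345 and 2020 CPM in LATS1/2-KO (log2 fold change 3.69 ± 0.34 SE, edgeR adjusted p = 0.00203; 4.38 without CTL replicate 2). In the collagen-rich stromal cells of the same libraries the changes were 1.84 (Mt1) and 2.79 (Mt2), and the difference between the cell classes was not called (edgeR adjusted p = 0.236 and 0.131). Free RNA was estimated to give 184 and 175 CPM of Mt1 in LATS1/2-KO.

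The promoter windows of both genes are shown because metallothionein genes are known to be induced through the metal response element. The windows run from 250 bases before to 50 bases after the start that RefSeq gives (GRCm38.p6, plus strand, chr8:94178839-94179138 for Mt1 and chr8:94172368-94172667 for Mt2), and capitals mark the core letters TGCACNC and TGCGCNC, searched on both strands:
Mt1: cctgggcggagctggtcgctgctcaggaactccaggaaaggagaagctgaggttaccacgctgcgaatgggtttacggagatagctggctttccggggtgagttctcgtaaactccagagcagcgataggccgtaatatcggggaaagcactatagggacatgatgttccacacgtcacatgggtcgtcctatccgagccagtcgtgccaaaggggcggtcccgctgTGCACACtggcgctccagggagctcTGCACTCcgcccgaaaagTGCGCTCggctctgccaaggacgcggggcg
Mt2: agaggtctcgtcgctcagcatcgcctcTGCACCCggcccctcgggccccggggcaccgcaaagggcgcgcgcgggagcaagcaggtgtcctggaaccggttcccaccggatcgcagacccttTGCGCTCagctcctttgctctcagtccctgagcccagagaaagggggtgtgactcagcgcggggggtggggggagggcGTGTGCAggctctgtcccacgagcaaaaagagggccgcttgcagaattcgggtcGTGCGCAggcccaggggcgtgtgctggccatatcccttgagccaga

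The Mt1 window held 3 matches and the Mt2 window 4. Of 32841 such windows, 25.7% held at least 1 match and 1.97% at least 3. A match describes the letters and not binding.

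Ctla2a, an inhibitor of cysteine proteases, stood at 888 and 235 CPM in CTL and 3838 and 3524 CPM in LATS1/2-KO (log2 fold change 2.71 ± 0.49 SE, edgeR adjusted p = 0.0168; 3.95 without CTL replicate 1 and 2.04 without CTL replicate 2). Tmem252 stood at 327 and 194 CPM in CTL and 1754 and 1311 CPM in LATS1/2-KO (log2 fold change 2.56 ± 0.29 SE, edgeR adjusted p = 0.00319). Cst3, which encodes cystatin C, stood at 4988 and 4316 CPM in CTL and 885 and 960 CPM in LATS1/2-KO (log2 fold change -2.33 ± 0.22 SE, edgeR adjusted p = 0.00203), and in collagen-rich cells its change was -2.36. Clu, a secreted chaperone, stood at 1692 and 1005 CPM in CTL and 309 and 232 CPM in LATS1/2-KO (log2 fold change -2.32 ± 0.29 SE, edgeR adjusted p = 0.00415). Cytl1, a secreted cytokine-like protein, stood at 784 and 1270 CPM in CTL and 98.3 and 70.6 CPM in LATS1/2-KO (log2 fold change -3.60 ± 0.30 SE, edgeR adjusted p = 0.00175).

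The endothelial changes were set against those of collagen-rich stromal cells (47 and 15 cells in CTL, 291 and 583 in LATS1/2-KO) in a model with a term for the difference. That term passed the threshold at 227 of 8518 genes (2.66%, edgeR with the library as block). Among genes given above, the fall of Cxcl12 was larger in endothelium by 2.26 ± 0.34 SE on the log2 scale (edgeR adjusted p = 3.07e-08) and that of Pltp by 2.43 ± 0.42 SE (adjusted p = 1.96e-06). Nid1 rose in endothelium and had a log2 fold change of -0.19 in collagen-rich cells, a difference of 2.16 ± 0.40 SE (edgeR adjusted p = 1.1e-05). Fn1 fell in endothelium and had a log2 fold change of 0.89 in collagen-rich cells (difference -2.83 ± 0.38 SE, edgeR adjusted p = 8.67e-11). For Col4a1 and Col4a2 the difference was 0.37 and 0.01 and was not called (edgeR adjusted p = 0.817 and 1.00), and for Cav1 it was -0.22 (adjusted p = 0.945). Of the named genes, Inhbb, Thbs1, Ecm2 and Ccdc3 also changed in collagen-rich cells, by 4.33, 2.08, -3.28 and -3.26 on the log2 scale. For none of them was the difference called (edgeR adjusted p = 0.947, 0.154, 0.855 and 0.855). Few CTL cells stand behind both classes, so a difference that was not called may still exist.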

How the data were processed

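Single-cell RNA libraries (10x) of 2 CTL and 2 LATS1/2-KO mammary glands were analysed from the UMI counts per gene and barcode that the authors deposited unnormalized. Per the file headers the matrices were written by Cell Ranger 6.1.2, whereas the submitters' processing notes name Cell Ranger 3.1.0 with mm10. Reads were not remapped. Positions are from GENCODE M21 (GRCm38), and 58 of 28693 symbols were listed more than once.

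Endothelial counts were summed per library and tested with edgeR 4.0.16 (quasi-likelihood, TMM, default low-count filter, Benjamini-Hochberg threshold 0.05) in R 4.3.3, and with DESeq2 1.42.0 as an alternative. Cells are not replicates. The members and gene lists were chosen with earlier results of these data known. Named genes were the 12 largest rises and falls among called, non-overlapping genes with at least 50 CPM in the higher group that were also called after free RNA subtraction, outside the choosing genes, and in each list the called genes of highest level. Free RNA was estimated as the epithelial gene level in endothelial cells over that in all kept cells, an upper estimate where these cells make the genes. Shares were compared by exact permutation over libraries. On simulated data with 7117 tested genes the edgeR step recovered 78% of 4-fold and 10% of 2-fold changes, and 1.12% of its calls were false. The simulation gave every gene the same spread between libraries (dispersion 0.0285) and placed changes only in well-counted genes. It held no difference in free RNA or cell types, so these rates need not hold for the calls above. Doublets were not called. The rule left out other classes only by Ptprc, Epcam and the fibrillar collagen genes, so cells that also held keratin, pericyte or adipocyte transcripts could remain. Replicate numbers name the libraries and were not taken to pair mice. Each group has 2 mice. The edgeR p-values measure the spread between library sums, counting error included, and the spread of each gene was partly borrowed from the other tested genes. Alternatives were another scaling, no filter, stricter cell limits, leaving out each library, free RNA subtraction and subsets by arterial markers. The result of 1 gene of the lists is not reported here.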

Additional observations from a re-analysis of the deposited data

Results flagged for a closer look

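For 28 genes the LATS1/2-KO effect differed between endothelial and collagen-rich cells by the test of the difference itself (edgeR, library as block, adjusted p under 0.05). They were taken from the named genes, list genes already called in endothelium and genes picked after their values were seen. Their count and direction are thus partly built in. Over all genes the term passed at 227 of 8518 (2.66%). Values are the endothelial minus the collagen-rich log2 fold change. Of the 28 differences, 19 were negative. The arterial and secreted factor genes were Alpl (-3.69), Dkk2 (-3.02), Itm2a (-3.46), Pltp (-2.43), Stmn2 (-7.79), Cxcl12 (-2.26) and Vegfc (-3.87). The receptor and ligand genes were Unc5b (-4.77), Nrp1 (-1.58) and Jag1 (-2.18). The other negative differences were in Itm2a (-3.46), Fabp5 (-2.15), Fn1 (-2.83), Sdpr (-3.62), Crim1 (-2.73), Nr4a1 (-1.14), Ccnd2 (-1.27), S100a4 (-3.30) and Clu (-1.47). Ctla2a, which rose in both classes, stood at -10.25. The 9 positive differences were in Car2 (11.56), Gbp2 (2.43), Nid1 (2.16), Mustn1 (2.63) and 5 epithelial genes, Wfdc18 (2.74), Krt8 (1.99), Krt18 (1.41), Igfbp2 (7.72) and Lcn2 (1.97). Ctla2a had no UMI in collagen-rich CTL cells, and Car2 and Igfbp2 none in endothelial CTL cells, so those 3 values depend on the prior count and are no bounds. Low collagen-rich counts stand behind other values too: in CTL, Alpl stood at 4.79 and 13.0 CPM there and Dkk2 at 33.5 and 0 CPM. The free RNA share rose from CTL to LATS1/2-KO in endothelium (2.19% and 1.82% to 12.2% and 7.59%) but not in collagen-rich cells (7.56% and 2.41%, then 7.25% and 4.55%), and its part in the 5 epithelial values was not tested.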

How the results depend on the processing

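The 386 changed genes became 255 with DESeq2 (224 shared in direction), 0 without the low-count filter (edgeR, 1725 at an unadjusted p under 0.05), and 363 to 797 with 1 library left out, the 797 without CTL replicate 1. In fits chosen after seeing the data they were 110 in cells with at least 4 arterial markers (21 and 22 CTL, 36 and 47 LATS1/2-KO cells) and 92 in the others, and of the 24 named genes 9 and 7 kept their call there and 4 and 9 lost it; since arterial genes themselves fell, they decided which cells entered each subset, and these fits do not separate other changes from that fall. The replicate block gave 309 genes, 282 of them shared. Over genes, same-numbered libraries did not deviate together (r = 0.0429), and whether they shared a litter or a day was not tested. The test of the difference from collagen-rich cells gave 58 genes without the library block and 108 to 161 with 1 library left out, the 108 without LATS1/2-KO replicate 1. The share difference of 3.89 percentage points was 2.83 with the stricter cell limits and 5.10 among cells low in Epcam. Without thinning, the capillary and tip cell differences were 7.12 and 7.92 points, and with at least 3 markers 25.5 and 40.2. The lymphatic difference ranged from -2.52 to 0.81 with 1 library left out and turned positive without CTL replicate 2. With the failed barcodes as profile, free RNA was 5.02% and 4.49% in CTL and 25.9% and 23.5% in LATS1/2-KO. The cause of these shifts was not tested. No named gene reversed under any fit that tested it. The planned fit on cells with no bed marker could not be fitted, since no CTL cell remained. With 34 and 37 CTL cells, small changes and rare transcripts were not detectable.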
